A study of Homo sapiens with 8 samples.

Results

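The 38 genes described here are neighbours on the long arm of chromosome 9, from AKNA to SCAI in RefSeq gene order. They were chosen by name, with earlier results of these libraries known, because their RNA levels differed as a region between the libraries labelled shCHD4 and shSC, so every difference between labels below is a description without a test. All 38 were found among the 19583 rows of the table, 37 by their current symbol and DFNB31 by an older name of WHRN. Of the 38, 35 entered the tests by averaging 1 or more normalised read counts. The average was taken over all 8 libraries, so a gene could pass it through 1 label alone. The oxygen comparisons and the interaction of oxygen with label did not choose the genes and were tested.

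RNA was sequenced from MDA-MB-231, an established human breast cancer line that lacks estrogen and progesterone receptors. The groups were shCHD4 cells at 1% O2, shCHD4 cells at 20% O2, shSC cells at 1% O2 and shSC cells at 20% O2, each with 2 libraries and each kept for 24 hours at its O2 level. Cells labelled shCHD4 carried, per the labels, a knockdown of CHD4, the ATPase of the NuRD chromatin remodelling complex, and shSC cells carried a scrambled control. No cells without either label were analysed here. Low oxygen acts on transcription mainly through the hypoxia-inducible factors (HIFs). The labels give neither the number of hairpins nor separate cultures for the libraries of a group, so the p-values rest on a spread between libraries that could be technical alone.

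A chromosome arm segment of this size holds genes of unrelated function that share only their position. Background knowledge of the region includes an innate immune and cytokine set (TLR4, TRAF1, C5 and TNFSF15), 2 large secreted or matrix proteins often made by mesenchymal tumour cells (TNC and PAPPA), centrosome proteins, and regulators of membrane traffic. RNA levels of neighbouring genes are known to move together when they share a chromatin domain or a number of DNA copies. Neither DNA nor chromatin was measured in these libraries, and neither was tested.

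The libraries held 24947627 to 31903585 recovered gene-assigned reads, and their first principal component held 88.8% of the variance. The targeted gene did not go with its label. CHD4 had 299 and 287 normalised read counts in shCHD4 cells at 1% O2 and 293 and 305 at 20% O2, against 280 and 278 in shSC cells at 1% O2 and 299 and 298 at 20% O2. "shCHD4" therefore names libraries with that label and not a lower CHD4 RNA. All 14 genes of a list of HIF targets rose at 1% O2 under both labels, with median log2 changes of 1.64 under shCHD4 and 1.49 under shSC (limma, adjusted p below 0.05 for each). Among all genes tested 12.3% rose under shCHD4 and 17.4% under shSC. Of these 14 genes 8 passed the interaction, where 4.36% of all genes did. They were led by NDRG1 (-0.67, adjusted p = 1.87e-06), VEGFA (0.59, adjusted p = 4.28e-06) and CA9 (-2.16, adjusted p = 2.63e-05). At 20% O2 CA9 had 5 reads under shCHD4 and 18 under shSC, with means of 0.092 and 0.345. Both means lie under the 0.5 added before taking logs, so the size of its interaction depends on that 0.5. Markers of the line were present: VIM lay between 3471 and 6856 and AXL between 1293 and 1504 in all libraries, while ESR1 and PGR had at most 4 and 3 reads in any library. Of 22 chosen markers 20 were in the table, and some moved with the label. CAV1 lay between 658 and 813 in shCHD4 libraries and between 353 and 389 in shSC libraries, and CD44 between 732 and 817 in shCHD4 libraries and between 1248 and 1421 in shSC libraries. KRT8 lay between 212 and 243 in shCHD4 libraries and between 85.9 and 125 in shSC libraries, and KRT19 between 30.8 and 52.1 in shCHD4 libraries and between 58.9 and 137 in shSC libraries. Among the blood, endothelial and fibroblast markers in the table, COL1A1 (28.1 to 32.6 in shCHD4 and 19.1 to 23.0 in shSC libraries) was the only one above 3 in any library. The part of these markers' differences in the regional difference was not tested.

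Most of the listed genes had less RNA in shCHD4 libraries, at both O2 levels. Together the 38 genes took 0.102% to 0.105% of reads in shCHD4 libraries and 0.213% to 0.22% in shSC libraries. Of the 35 tested, 31 were lower in shCHD4 cells at both O2 levels, against 46.1% of all 12645 genes tested, and the same number had no overlap between labels at either level, against 39.7%. At 1% O2 alone 32 were lower with no overlap, against 44.9% of all genes, and at 20% O2 alone 32, against 43.8%. These backgrounds are given for scale only, since the label comparison chose the genes. The median log2 difference, shCHD4 minus shSC, was -0.67 at 1% O2 and -0.76 at 20% O2, against -0.0067 and -0.0091 over all genes tested. At least 0.5 lower were 23 of 35 at each O2 level, where 21.4% of all tested genes were at 1% and 20.6% at 20% O2. At least 1 lower, a halving, were 12 of 35 at 1% and 11 of 35 at 20% O2, where 8.56% and 8.07% of all tested genes were. In bulk RNA, fewer cells that make a transcript and less of it per cell cannot be told apart.

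**Figure D1:**
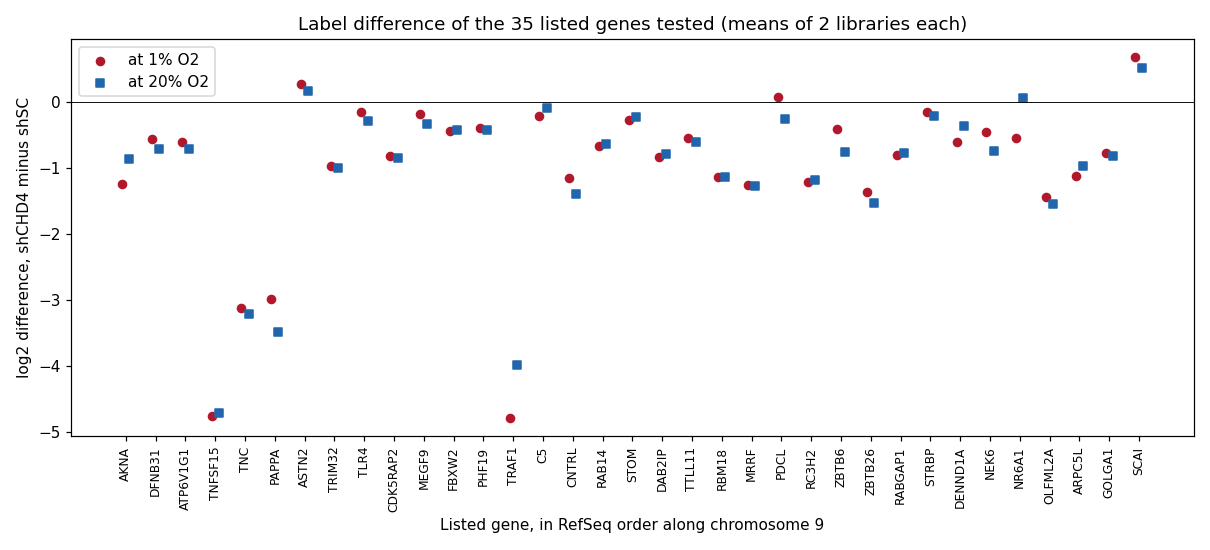
Log2 difference in normalised read count, shCHD4 minus shSC, for the 35 listed genes tested, in RefSeq order along chromosome 9 (circles at 1% O2, squares at 20% O2, each from means of 2 libraries a group). Most points lie between 0 and -1.54, with TNFSF15, TNC, PAPPA and TRAF1 near -3 or lower and ASTN2 and SCAI above 0 at both O2 levels. PDCL at 1% O2 (0.07) and NR6A1 at 20% O2 (0.06) also lie above 0.

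Within this shift, 4 genes stood much lower than the others, and 3 of them, TNFSF15, TNC and PAPPA, follow each other on the list. TNFSF15 encodes TL1A, a cytokine that binds death receptor 3. It had 2.58 and 2.90 normalised read counts in shCHD4 cells at 1% O2 and 1.68 and 2.21 at 20% O2, against 85.9 and 86.8 in shSC cells at 1% O2 and 61.6 and 64.6 at 20% O2. Every shCHD4 library was far under every shSC library, and the groups differed by 26.9-fold at 1% and 26.1-fold at 20% O2. TRAF1, an adaptor of tumour necrosis factor receptors, had 11.1 and 11.6 in shCHD4 cells at 1% O2 and 16.6 and 17.3 at 20% O2, against 323 and 327 in shSC cells at 1% O2 and 284 and 268 at 20% O2. The difference was 27.5-fold at 1% and 15.8-fold at 20% O2. PAPPA, a secreted protease that cleaves insulin-like growth factor binding proteins, had 6.46 and 5.80 in shCHD4 cells at 1% O2 and 4.98 and 5.07 at 20% O2, against 50.7 and 53.5 in shSC cells at 1% O2 and 60.3 and 62.8 at 20% O2. It was 7.94-fold lower at 1% and 11.2-fold lower at 20% O2. TNC, the matrix glycoprotein tenascin-C, had 34.9 and 34.6 in shCHD4 cells at 1% O2 and 30.8 and 35.8 at 20% O2, against 332 and 279 in shSC cells at 1% O2 and 319.9 and 306 at 20% O2. Here the fold was 8.64 at 1% and 9.29 at 20% O2.

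A middle group was lower by about 1 to 1.5 on the log2 scale. It held OLFML2A, a secreted olfactomedin-domain protein (log2 difference -1.43 at 1% and -1.54 at 20% O2), the zinc finger gene ZBTB26 (-1.36 and -1.52), the centriole protein gene CNTRL (-1.16 and -1.39) and MRRF, which recycles mitochondrial ribosomes (-1.26 and -1.27). RC3H2, the RNA-binding ubiquitin ligase roquin-2, was at -1.22 and -1.18, and RBM18, with an RNA recognition motif, at -1.13 at both levels. ARPC5L, a subunit of the actin-nucleating Arp2/3 complex, was at -1.12 and -0.97, and the ubiquitin ligase gene TRIM32 at -0.96 and -1.01. AKNA, an AT-hook protein of the centrosome, was at -1.24 at 1% and -0.86 at 20% O2. In none of these 9 genes did the labels overlap at either O2 level, where 39.7% of all genes tested were lower without overlap at both. The 9 were grouped by their label difference, so this is a description only.

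A further group, mixed in function, differed by less. It held the endosomal GTPase gene RAB14 (-0.67 at 1% and -0.63 at 20% O2), RABGAP1, which turns off Rab GTPases (-0.80 and -0.77), the golgin gene GOLGA1 (-0.78 and -0.82), the Rab35 activator gene DENND1A (-0.60 and -0.37) and ATP6V1G1 of the vacuolar proton pump (-0.61 and -0.71). The Ras GTPase activator gene DAB2IP (-0.83 and -0.79), the centrosome gene CDK5RAP2 (-0.81 and -0.84), the mitotic kinase gene NEK6 (-0.46 and -0.74) and the tubulin glutamylase gene TTLL11 (-0.55 and -0.60) belonged to it too, as did DFNB31, which encodes the hair cell scaffold whirlin (-0.56 and -0.71), and the zinc finger gene ZBTB6 (-0.41 and -0.76). The F-box gene FBXW2 (-0.44 and -0.43) and the Polycomb accessory gene PHF19 (-0.40 and -0.43) differed by a little less.

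The smallest shifts also lay inside the region, next to genes with large ones. TLR4, the lipopolysaccharide receptor, had 80.8 and 82.1 in shCHD4 cells at 1% O2 and 79.5 and 81.5 at 20% O2, against 89.98 and 92.0 in shSC cells at 1% O2 and 98.4 and 98.4 at 20% O2. The labels did not overlap, yet the difference was only 1.12-fold at 1% and 1.22-fold at 20% O2, with TRIM32 and CDK5RAP2 on either side of it. STRBP, an RNA-binding protein of spermatids, had 17.2 and 18.3 in shCHD4 cells at 1% O2 and 18.0 and 18.2 at 20% O2, against 18.8 and 20.7 in shSC cells at 1% O2 and 20.1 and 22.4 at 20% O2. C5, the complement protein cleaved into the C5a anaphylatoxin, had 6.01 and 6.36 in shCHD4 cells at 1% O2 and 5.58 and 5.90 at 20% O2, against 6.76 and 7.80 in shSC cells at 1% O2 and 6.33 and 6.02 at 20% O2. In both genes the labels stood apart by less than 1.2-fold at each O2 level. PDCL, a chaperone of G protein beta subunits, had 24.6 and 25.8 in shCHD4 cells at 1% O2 and 21.2 and 21.8 at 20% O2, against 22.8 and 24.97 in shSC cells at 1% O2 and 24.0 and 27.6 at 20% O2. Its labels overlapped at 1% O2 (0.07) and not at 20% O2 (-0.26). These small differences depended on single libraries. Without shSC 1% O2 replicate 1 or 2, the difference at 1% O2 was 0.01 or 0.14 for PDCL, -0.31 or -0.12 for C5 and -0.21 or -0.08 for STRBP. Without shSC 20% O2 replicate 1 or 2, that at 20% O2 was -0.36 or -0.16 for PDCL and -0.30 or -0.14 for STRBP. For C5 at 20% O2 it was -0.06 or -0.13 without shCHD4 20% O2 replicate 1 or 2. The membrane protein genes MEGF9 and STOM were at -0.18 and -0.27 at 1% and at -0.34 and -0.23 at 20% O2.

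Going against the region were 2 genes at both O2 levels. SCAI, a nuclear inhibitor of the MRTF-SRF coactivator pathway and the last gene of the list, had 12.6 and 12.3 in shCHD4 cells at 1% O2 and 11.9 and 12.3 at 20% O2, against 7.61 and 7.56 in shSC cells at 1% O2 and 7.82 and 8.80 at 20% O2. It was higher in every shCHD4 library, by 1.6-fold at 1% and 1.43-fold at 20% O2, although RefSeq places it partly over GOLGA1, which was lower. ASTN2, an astrotactin of neuronal migration, had 5.32 and 3.57 in shCHD4 cells at 1% O2 and 4.04 and 5.14 at 20% O2, against 3.18 and 3.93 in shSC cells at 1% O2 and 3.43 and 4.68 at 20% O2. Its labels overlapped at both levels, and without shSC 20% O2 replicate 1 its difference at 20% O2 was -0.03 rather than 0.16. Its difference at 1% O2 was 0.01 without shCHD4 1% O2 replicate 1 and 0.53 without replicate 2, against 0.27 with all libraries. RefSeq places TRIM32 and ASTN2 over each other. Overlap was taken over whole genes and not exons, and the labels do not state whether reads were counted by strand. How far such overlapping genes share reads is therefore not known.

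The low end of the list carried little information. LHX6, a LIM homeobox gene of interneurons, had 6 to 15 reads per library, and CRB2, a cell polarity gene, and LHX2, another LIM homeobox gene, had a single read each over all 8 libraries. A count of 0 in a library allows up to 3 reads. NR6A1, an orphan nuclear receptor gene, just passed the filter with 45 to 78 reads per group. Its values were 0.996 and 0.566 in shCHD4 cells at 1% O2 and 1.53 and 1.17 at 20% O2, against 1.43 and 1.28 in shSC cells at 1% O2 and 1.41 and 1.15 at 20% O2. The label difference was -0.55 at 1% O2 and 0.06, with overlap, at 20% O2.

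The table holds 23 further genes placed between AKNA and SCAI that are not on the list, and 8 of them passed the filter. They were taken by position, but from an interval picked because its RNA levels differed between labels, so they are not an independent check. Of the 8, 7 were lower in shCHD4 libraries with no overlap at either O2 level, against 39.7% of all genes tested. The medians of the 8 were -0.65 at 1% and -0.64 at 20% O2. C9orf91, between ATP6V1G1 and TNFSF15, had 6.65 ± 0.208 in shCHD4 cells and 56.9 ± 4.08 in shSC cells at 1% O2 (SD, n = 2), and 6.57 ± 0.125 and 56.5 ± 0.829 at 20% O2. With it, the run of genes that differed by about 3 or more on the log2 scale held C9orf91, TNFSF15, TNC and PAPPA without a gap among tested genes. The proteasome genes PSMD5 (-0.87 at 1% and -0.84 at 20% O2) and PSMB7 (-0.69 and -0.64), the ribosomal protein gene RPL35 (-0.61 and -0.65), the respiratory chain gene NDUFA8 (-0.41 and -0.44) and LOC100129034 (-1.43 and -1.35) lay in the range of the listed genes. The actin-severing gelsolin gene GSN differed by -0.19 and -0.10. MIR600HG, which RefSeq places over STRBP, was higher, by 0.54 and 0.93. Over all 43 tested genes of the interval the median was -0.67 at 1% and -0.74 at 20% O2.

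The difference did not end with the list. Of the 20 tested genes that follow SCAI, 19 were lower in shCHD4 libraries at both O2 levels, with medians of -0.70 at 1% and -0.63 at 20% O2, close to those of the listed genes. The nearest 5 were PPP6C (-0.69 and -0.65), RABEPK (-0.99 and -0.92), HSPA5, which encodes the chaperone BiP (-1.46 and -1.32), GAPVD1 (-0.81 and -0.83) and MAPKAP1 (-0.76 and -0.43). In the next 20 genes, ENG to CERCAM, the medians were -0.40 and -0.34, and in the 20 after those, ODF2 to CRAT, 0.04 at both levels. On the other side, the 20 tested genes before AKNA had medians of -0.32 at both levels, with 14 lower at 1% and 15 at 20% O2, and the 20 before those -0.15 at 20% but 0.13 at 1% O2. The nearest 5 were COL27A1 (-4.33 at 1% and -3.51 at 20% O2), ZNF618 (0.45 and -0.34), RGS3 (-1.28 and -1.19), POLE3 (-0.69 and -0.82) and ALAD (-0.37 and -0.60). COL27A1, a fibrillar collagen gene, averaged under 1 normalised read count in shCHD4 cells (0.436 ± 0.0829 at 1% and 0.588 ± 0.144 at 20% O2, SD, n = 2), against 18.3 ± 1.36 and 11.9 ± 0.754 in shSC cells. Its shCHD4 means lie near the 0.5 added before taking logs, so the size of its label difference depends on that 0.5. Over the 455 tested genes of chromosome 9 outside the interval the medians were -0.15 at 1% and -0.14 at 20% O2, and over the 11857 placed on other chromosomes they were -1.9e-05 and -0.0014. Lower medians came back further from AKNA, in blocks of 20 tested genes looked at after the values were seen. From FAM120A to SPIN1 the medians were -0.58 at 1% and -0.45 at 20% O2, and from CDK20 to PSAT1, where 18 genes were lower at 1% and 19 at 20% O2, they were -0.60 and -0.46. The next blocks outward had -0.31 and -0.39 (CEP78 to MAMDC2) and -0.39 and -0.40 (PTAR1 to EXOSC3). The shift was therefore not confined to the listed stretch.

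**Figure D2:**
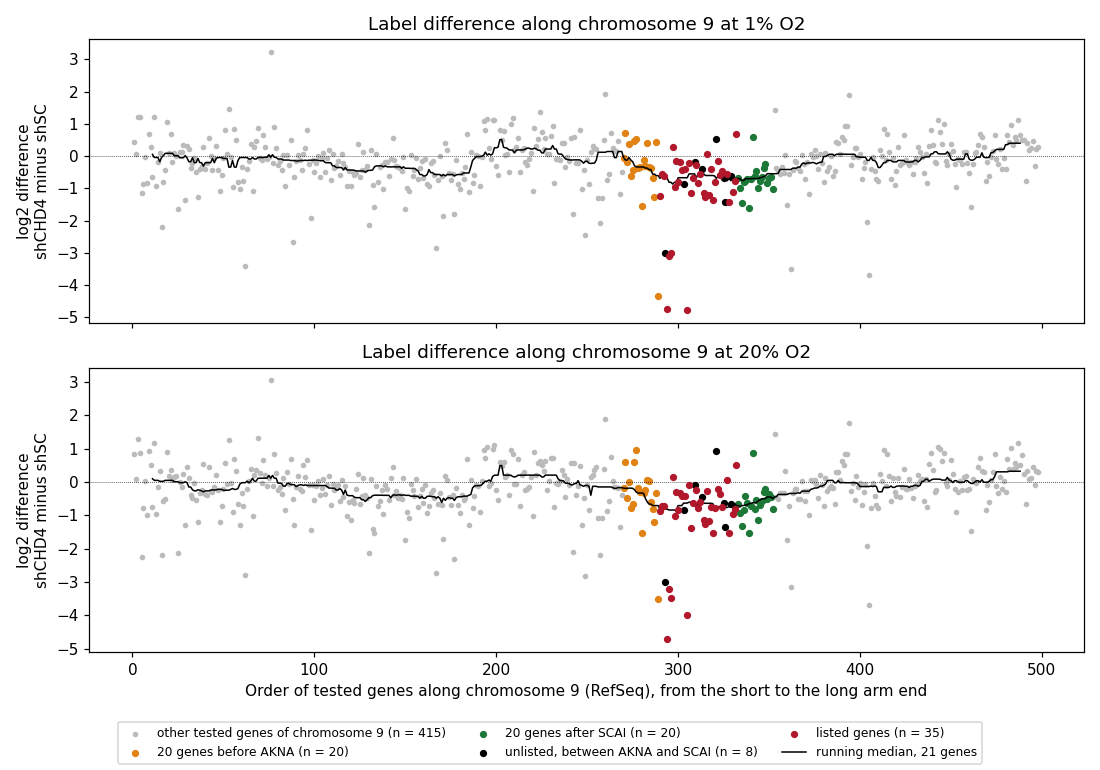
Log2 difference, shCHD4 minus shSC, of each tested gene of chromosome 9 at 1% O2 (above) and 20% O2 (below), by the order of genes in RefSeq, with a running median over 21 genes. Listed genes (35) and the 20 genes after SCAI share a stretch of medians between -0.63 and -0.76, which returns to 0.04 by the third block of 20 genes after SCAI. Another stretch of low medians, down to -0.60 at 1% O2, lies on the other side, from FAM120A to EXOSC3.

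Low oxygen changed these genes by little, at most by 0.56 on the log2 scale. At 1% against 20% O2 under shCHD4, 6 of 35 rose and 4 fell, 28.6% in all, against 12.3% rising, 10.7% falling and 23% called in either direction among all genes tested (limma, Benjamini-Hochberg adjusted p below 0.05). Under shSC 4 rose and 4 fell, 22.9%, against 17.4%, 17.9% and 35.2% of all genes. The median log2 change of the listed genes was 0.03 under shCHD4 and -0.04 under shSC, against -0.0037 and -0.011 over all genes. In either comparison 13 of 35 passed, where 42.9% of all genes did, and 5 passed in both, where 15.3% did. These shares are near or under the background. In size, the label difference averaged over O2 levels exceeded both oxygen differences in 30 of 35 genes, against 72.9% of all genes. That count is given for scale only, since the label comparison chose the genes.

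**Figure D3:**
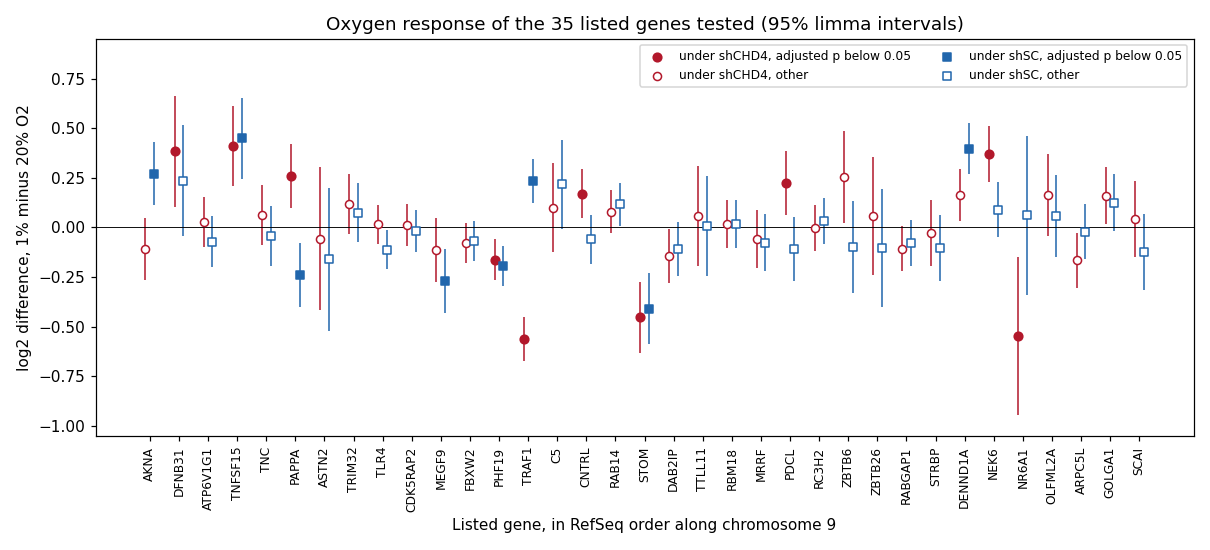
Log2 difference, 1% minus 20% O2, of the 35 listed genes tested, under shCHD4 (circles) and shSC (squares), with 95% limma intervals. Filled symbols passed at adjusted p below 0.05: 10 under shCHD4 and 8 under shSC, with the largest difference for TRAF1 under shCHD4 (-0.56).

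The 5 genes that passed in both oxygen comparisons were TNFSF15, STOM, PHF19, TRAF1 and PAPPA. To show what lies in front of them, the 250 bases before a RefSeq start of each gene are given below. They are written 5′ to 3′ on the gene's strand, from build GRCh38.p14, which is not the table's hg19. The start used need not be the most upstream of a gene, and windows before other starts were not searched. Capitals mark ACGTG or GCGTG, the core letters of HIF response elements, on either strand, where overlapping matches count separately.
TNFSF15, chr9:114792531-114792780, minus strand: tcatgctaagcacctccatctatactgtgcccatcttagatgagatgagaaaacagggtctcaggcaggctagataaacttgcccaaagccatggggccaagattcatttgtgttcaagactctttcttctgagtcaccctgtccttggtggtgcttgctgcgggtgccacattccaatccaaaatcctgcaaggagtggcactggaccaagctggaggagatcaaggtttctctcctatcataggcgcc
STOM, chr9:121370251-121370500, minus strand: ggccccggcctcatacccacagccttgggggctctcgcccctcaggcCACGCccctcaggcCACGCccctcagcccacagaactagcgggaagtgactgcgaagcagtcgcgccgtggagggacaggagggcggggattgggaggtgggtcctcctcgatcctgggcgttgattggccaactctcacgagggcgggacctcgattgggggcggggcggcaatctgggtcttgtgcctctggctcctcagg
PHF19, chr9:120868912-120869161, minus strand: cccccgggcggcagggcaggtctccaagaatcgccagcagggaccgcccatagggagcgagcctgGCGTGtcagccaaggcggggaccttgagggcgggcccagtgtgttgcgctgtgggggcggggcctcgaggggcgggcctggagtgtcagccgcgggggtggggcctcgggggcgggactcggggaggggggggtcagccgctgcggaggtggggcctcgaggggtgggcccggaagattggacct
TRAF1, chr9:120929172-120929421, minus strand: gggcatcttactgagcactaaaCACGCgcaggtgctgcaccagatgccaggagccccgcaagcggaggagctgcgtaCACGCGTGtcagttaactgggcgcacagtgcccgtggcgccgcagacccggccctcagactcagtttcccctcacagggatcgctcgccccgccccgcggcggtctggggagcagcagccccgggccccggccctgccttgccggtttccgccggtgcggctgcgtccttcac
PAPPA, chr9:116153541-116153790, plus strand: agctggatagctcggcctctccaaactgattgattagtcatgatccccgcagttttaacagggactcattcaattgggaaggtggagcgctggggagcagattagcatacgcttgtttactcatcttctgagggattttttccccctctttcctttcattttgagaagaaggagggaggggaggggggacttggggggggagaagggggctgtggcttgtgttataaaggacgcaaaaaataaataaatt
Of these 5 windows 3 held the motif, those of STOM, PHF19 and TRAF1. Among the 13 genes that passed in either oxygen comparison 8 windows (61.5%) held it, a share close to the 58.4% among windows of 10035 tested genes. Of all 27305 windows in the RefSeq table, 43.1% held it. Of the listed genes 37 had a window, and none was found for ZBTB6. A match is a description of letters and not of binding. The lack of a match, as for TNFSF15 and PAPPA, holds for the window shown and not for other starts of the gene.

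TNFSF15 rose at 1% O2 under both labels, at levels 26.9-fold and 26.1-fold apart between labels. Its change was 0.41 under shCHD4 (1.33-fold, 95% interval 0.21 to 0.61, adjusted p = 0.00534) and 0.45 under shSC (1.37-fold, 0.25 to 0.65, adjusted p = 0.0015), and the interaction was -0.04 (95% interval -0.33 to 0.25). The rise under shCHD4 rests on 157 reads at 1% and 109 at 20% O2. It lost its call without shCHD4 1% O2 replicate 2 (adjusted p = 0.0643), without shCHD4 20% O2 replicate 1 (0.102) and with DESeq2 on the recovered reads (0.0631). Its size was 0.26 without shCHD4 20% O2 replicate 1 and 0.57 without replicate 2 of that group.

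STOM, which encodes the membrane scaffold stomatin, fell at 1% O2 under both labels. It had 9.62 and 10.9 normalised read counts at 1% O2 and 14.6 and 13.7 at 20% O2 in shCHD4 cells, and 12.3 and 12.6 at 1% O2 and 16.6 and 16.8 at 20% O2 in shSC cells. Neither pair overlapped. The differences were -0.45 under shCHD4 (1.37-fold, adjusted p = 0.000987) and -0.41 under shSC (1.33-fold, adjusted p = 0.00111), with an interaction of -0.04 (95% interval -0.29 to 0.21), and they passed in all alternatives run. PHF19, a Polycomb-like subunit that helps PRC2 to bind chromatin, had 118 and 113 at 1% O2 and 130.2 and 128 at 20% O2 in shCHD4 cells, and 147 and 157 at 1% O2 and 179 and 169.8 at 20% O2 in shSC cells. It fell by 0.16 under shCHD4 (adjusted p = 0.0228) and fell by 0.19 under shSC (adjusted p = 0.00451). Under shCHD4 that call ended without any 1 of the 4 shCHD4 libraries (adjusted p = 0.0564 to 0.203), with no filter or with no variance trend, and under shSC without shSC 1% O2 replicate 1 (0.0698). RefSeq places PHF19 partly over TRAF1.

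TRAF1 and PAPPA went in opposite directions under the 2 labels, and these were the only listed genes past the threshold for the interaction, 2 of 35 (5.71%) where 4.36% of all genes passed (2.21% higher, 2.14% lower). TRAF1 fell by 0.56 under shCHD4 (1.48-fold, 95% interval -0.67 to -0.45, adjusted p = 3.81e-07), and rose by 0.24 under shSC (1.18-fold, 0.13 to 0.35, adjusted p = 0.00207). Both libraries at 1% O2 lay below both at 20% O2 in shCHD4 cells, and above them in shSC cells. The interaction was -0.80 (95% interval -0.95 to -0.64, adjusted p = 3.72e-06), and it passed in all alternatives run. PAPPA did the reverse, rising by 0.26 under shCHD4 (1.2-fold, 0.10 to 0.42, adjusted p = 0.0205) while it fell by 0.24 under shSC (1.18-fold, -0.40 to -0.08, adjusted p = 0.0212). Its interaction was 0.50 (95% interval 0.27 to 0.73, adjusted p = 0.0115). That call ended without shCHD4 1% O2 replicate 1 (adjusted p = 0.0714), without shSC 1% O2 replicate 1 (0.0673), with all genes kept (0.0712) and with 1 prior variance for all genes (0.0514). The rise under shCHD4, on 352 and 280 reads, ended without shCHD4 1% O2 replicate 1 (0.207) or either shCHD4 20% O2 library (0.0998 and 0.0552), and with quantile normalization (0.0501), edgeR (0.0677), DESeq2 (0.138) or no filter (0.0531). The fall under shSC ended without shSC 1% O2 replicate 1 (0.146) or shSC 20% O2 replicate 2 (0.113). Antisense genes lie over PAPPA in RefSeq, and whether their reads were counted with those of PAPPA is not known.

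**Figure D4:**
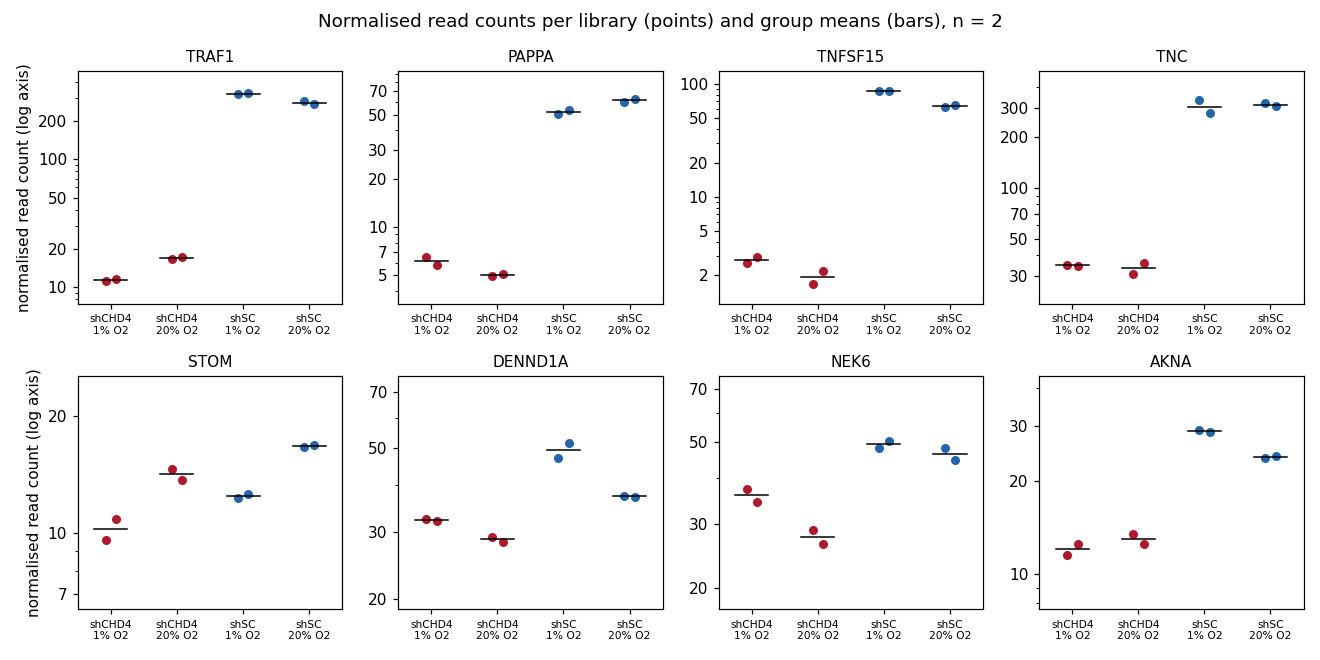
Normalised read counts on log axes for 8 listed genes, with a point per library and a bar at each group's mean (n = 2). TRAF1 lies at 11.1 and 11.6 against 16.6 and 17.3 in shCHD4 cells at 1% and 20% O2 and at 323 and 327 against 284 and 268 in shSC cells, while PAPPA shows the opposite order and TNC overlaps between O2 levels.

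Genes that passed in 1 oxygen comparison were as follows. AKNA had 29.1 and 28.8 at 1% O2 and 23.7 and 24.1 at 20% O2 in shSC cells, where it rose by 0.27 (adjusted p = 0.00917). In shCHD4 cells it had 11.5 and 12.4 at 1% O2 and 13.4 and 12.5 at 20% O2, a difference of -0.11 (adjusted p = 0.317). Its interaction of -0.38 just missed the threshold (95% interval -0.60 to -0.16, adjusted p = 0.0508) and passed with edgeR (adjusted p = 0.0443) and in 4 other alternatives. The shSC call ended without shSC 1% O2 replicate 1 (0.0542). DENND1A had 47.0 and 51.4 at 1% O2 and 37.4 and 37.1 at 20% O2 in shSC cells, and rose there by 0.40 (1.32-fold, adjusted p = 7.81e-05) in all alternatives run. In shCHD4 cells it had 32.4 and 32.03 at 1% O2 and 29.2 and 28.2 at 20% O2, a difference of 0.16 (adjusted p = 0.063), and the interaction did not pass (-0.23, adjusted p = 0.148). MEGF9, an EGF-repeat membrane protein, had 17.9 and 19.2 at 1% O2 and 23.3 and 21.5 at 20% O2 in shSC cells and fell by 0.27 there (adjusted p = 0.0108). That call ended without shSC 1% O2 replicate 1 (0.0965), without shSC 20% O2 replicate 1 (0.0874) and with DESeq2 (0.0505). MEGF9 in shCHD4 cells had 15.9 and 16.5 at 1% O2 and 17.1 and 18.1 at 20% O2, a difference of -0.11 (adjusted p = 0.303).

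Under shCHD4, NEK6, a kinase needed for mitotic spindle formation, had 37.2 and 34.4 at 1% O2 and 28.9 and 26.3 at 20% O2, and rose by 0.37 (1.29-fold, adjusted p = 0.000658) in all alternatives run. In shSC cells it had 48.3 and 50.5 at 1% O2 and 48.1 and 44.7 at 20% O2, a difference of 0.09 (adjusted p = 0.313), and the interaction was 0.28 (adjusted p = 0.102), so the labels were not shown to differ. The other 4 calls under shCHD4 lay close to the threshold. CNTRL had 26.8 and 26.2 at 1% O2 and 22.9 and 24.0 at 20% O2 in shCHD4 cells (0.17, adjusted p = 0.0429), and 60.5 and 58.9 at 1% O2 and 61.0 and 63.5 at 20% O2 in shSC cells (-0.06). DFNB31 had 2.75 and 2.76 at 1% O2 and 1.80 and 2.21 at 20% O2 in shCHD4 cells (0.38, adjusted p = 0.0454), and 4.22 and 4.37 at 1% O2 and 3.81 and 3.34 at 20% O2 in shSC cells (0.24). PDCL differed by 0.22 under shCHD4 (adjusted p = 0.0446) and -0.11 under shSC, and NR6A1 by -0.55 under shCHD4 (adjusted p = 0.0458) and 0.06 under shSC (limma). The NR6A1 difference under shCHD4 was -0.79 without shCHD4 1% O2 replicate 1 and -0.30 without replicate 2 of that group. The calls of CNTRL and PDCL ended without any 1 of the 4 shCHD4 libraries (adjusted p = 0.0675 to 0.25 and 0.0976 to 0.229). That of DFNB31 ended without either shCHD4 1% O2 library, without shCHD4 20% O2 replicate 1, or without either shSC 1% O2 library (0.0518 to 0.309). That of NR6A1 ended without shCHD4 1% O2 replicate 2, without either shCHD4 20% O2 library, or without either shSC 1% O2 library (0.0503 to 0.391). With edgeR the calls of CNTRL (0.0544), DFNB31 (0.0655) and NR6A1 (0.0546) ended, and with DESeq2 those of CNTRL, PDCL and DFNB31. DESeq2 gave no adjusted p-value for NR6A1, so its call was not judged there. With the replicate block the calls of CNTRL (0.054) and DFNB31 (0.051) ended too.

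The other 22 tested genes passed in neither oxygen comparison. Among the 25 that did not pass under shCHD4 the differences ran from -0.17 for ARPC5L to 0.26 for ZBTB6, and among the 27 under shSC from -0.16 for ASTN2 to 0.24 for DFNB31. TNC, which differed so much between labels, differed by 0.06 under shCHD4 (95% interval -0.09 to 0.21) and -0.04 under shSC (-0.19 to 0.11). TLR4 differed by 0.02 under shCHD4 (-0.08 to 0.12) and -0.11 under shSC (-0.21 to -0.01, adjusted p = 0.0698). Label differences at the 2 O2 levels were within 0.25 of each other in 28 of the 35 genes, and in 10604 of all 12645 genes tested.

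Genes that act with members of the region elsewhere in the genome were counted for comparison. Of 18 partners of TLR4 signalling 17 were tested. Under shCHD4 none rose and 2 fell, where 12.3% of all genes rose and 10.7% fell, and under shSC 4 rose and 1 fell, where 17.4% and 17.9% did. The adaptor gene TRAF3 passed the interaction (-0.30, adjusted p = 0.0334), with -0.32 under shCHD4 and -0.02 under shSC. The partners' label medians were -0.13 at 1% and -0.34 at 20% O2, with a wide range. At its ends, picked after the values were seen, the kinase gene IRAK2, which lies outside the region, was at -3.99 and -3.73, as far down as some of the 4 lowest listed genes, and the adaptor gene TICAM2 was at 1.21 and 0.98. Of 15 other subunits and partners of the vacuolar proton pump, 1 rose and 1 fell under shCHD4 and 3 rose and 1 fell under shSC, with the same shares over all genes as above. Their label medians were 0.02 at 1% and 0.03 at 20% O2, but members went both ways. ATP6V1B2 (-0.99 and -0.84), ATP6V1H (-0.72 and -0.72) and ATP6AP1 (-0.68 and -0.57) were about as low as ATP6V1G1 (-0.61 and -0.71) or lower, and ATP6V0D1 was higher (1.05 and 1.06), all 4 named after their values were seen.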

How the data were processed

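Polyadenylated RNA of MDA-MB-231 cells was read in 8 libraries, 2 in each of 4 groups. The deposited table is named as FPKM, but the deposited values behave as a scaled read signal. Dividing a library's values by a single step gave whole reads, to within 0.01 reads, for 100% of them, so gene length had not entered and each library had its own factor. They are called normalised read counts. The build is hg19, and TopHat, featureCounts, edgeR, Picard 1.127, bcl2fastq 2.17 and FastQC 0.11.2 were used, per the submitters' processing notes, which the labels give with no role or order. No annotation or strand setting is given there. Genes were placed by RefSeq (GRCh38.p14), for order and names only.

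Genes with a mean of at least 1, 12645 in all, were fitted on log2(value + 0.5) by limma 3.58.1 (R 4.3.3), using 4 group means and a trended prior variance. Residual degrees of freedom were 4 and prior ones 13.9. Tests were two-sided, at a threshold of 0.05 after adjusting p-values over all genes tested (Benjamini-Hochberg). Fold changes, taken on this scale, come out too small for low genes. The fit was tested on simulated data. Exact permutation of 2 against 2 libraries cannot go below p = 0.33. Unit and test were as planned for values that are not raw counts, and edgeR 4.0.16 and DESeq2 1.42.0 on the recovered reads were alternatives, with other scalings, filters, pseudocounts, a block and left-out libraries. Values per library are given for listed genes past the threshold, the 4 with the largest and the 4 with the smallest label difference, and those against the median. The members, lists and tests were chosen with earlier results of these data known.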

Additional observations from a re-analysis of the deposited data

Results flagged for a closer look

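Oxygen changes differed between the labels by the interaction test in 2 of the 35 listed genes tested (limma), 5.71%, a share near the 4.36% of all genes tested. For TRAF1 the difference, shCHD4 minus shSC, was -0.80 on the log2 scale (adjusted p = 3.72e-06), and both oxygen changes passed in opposite directions. For PAPPA it was 0.50 (adjusted p = 0.0115), also with opposite directions. No cause was tested. Groups of 2 libraries are too small to look for single libraries that stand apart.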

How the results depend on the processing

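The counts here are of listed genes, without the share of all genes that passed in the same setting. Calls over all genes can move with the setting too, so a lower count is not a result about the listed genes alone. Genes that rose under shCHD4 numbered 6, and 2 with no filter on low values, 3 with edgeR, 1 with DESeq2, 3 with scaling to library totals (added after the data were seen), and 1 to 8 without 1 library. Genes that fell under shCHD4 numbered 4, and 2 with no filter and without a variance trend, and 2 to 4 without 1 library. Under shSC 4 rose and 4 fell, with 3 to 5 and 1 to 4 without 1 library. The interaction passed in 2 genes, in 1 with no filter and without a variance trend, and in 1 to 4 without 1 library, where PDCL and ZBTB6 joined without shSC 20% O2 replicate 1. The median label difference was -0.76 at 20% O2, -0.68 with library totals and -0.80 to -0.74 without 1 library. At 1% O2 it was -0.67, and -0.76 with pseudocount 0.1, -0.60 with no filter, -0.79 with a mean of at least 5, -0.56 with quantile normalization or library totals, -0.77 with edgeR, -0.79 with DESeq2 and -0.79 to -0.67 without 1 library. ASTN2's label difference at 20% O2 ran from -0.033 (without shSC 20% O2 replicate 1) to 0.36 (without replicate 2) against 0.16 with all libraries. The cause of these moves was not tested. Library totals moved the median of all genes at 1% O2 between labels from -0.0067 to 0.10, and the share of rises among called genes from 53.5% to 42.5% under shCHD4, 49.3% to 32.7% under shSC and 50.8% to 67.4% in the interaction. With the replicate block, 4 rose and 4 fell under shCHD4, 4 rose and 4 fell under shSC, and 2 passed the interaction. Same-numbered libraries deviated with correlations from -0.12 to 0.12 across genes. With 1 pair a group these values cannot decide whether the numbers pair the libraries, and the labels do not say. With the block and the replicate numbers crossed in shCHD4 cells at 1% O2 only, the counts were 6, 4, 4, 4 and 2, in the order of those with the replicate block. The 6 did not include DFNB31, which lost its call there.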
